A study of Mus musculus with 5 samples.

Results

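The genes described here encode 10 factors that rescue stalled ribosomes or end translation: Rack1, Zfp598, Usp10, Ascc3, Pelo, Hbs1l, Abce1, Etf1, Nemf and Ltn1. They were chosen by gene symbol for their known roles, and the transcripts annotated as protein-coding under those symbols numbered 21 of the 56989 protein-coding transcripts in the deposited table. For each gene, the protein-coding transcript with the highest mean level over all libraries was the main value, which gave 10 of the 21947 genes that have such a transcript. Footprint reads came from mouse embryonic stem cells (46C line) grown with serum and LIF, a cytokine that keeps them undifferentiated. All cultures received cycloheximide, which arrests elongating ribosomes, and lysates were digested with RNase I. For the standard RIBO-seq group of 3 libraries, a sucrose cushion was used to sediment the ribosomes. For the AHARIBO RIBO-seq group of 2 libraries, nascent chains that carried AHA, an azide analogue of methionine, were linked to biotin and pulled down on magnetic beads with their ribosomes. The labels call all 5 libraries untreated and biological replicates, and the methods do not restate the AHA treatment for these libraries. A legend of the study places the standard libraries on the input of the capture, but no source used here says outright that this lysate held AHA.

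When a ribosome stops on a damaged or truncated mRNA, the next ribosome runs into it, and the collided pair is recognised and ubiquitylated on its small subunit. Rescue factors then split the subunits, and the chain left on the large subunit is ubiquitylated for destruction by the proteasome. Normal termination uses a related set of proteins, in which a release factor reads the stop codon and an ATPase separates the subunits. AHA enters a chain at methionine codons, so the in-frame ATG codons of each coding sequence are the places where a chain can take up the handle used for capture.

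The first 120 coding bases of 5 of the genes are shown because they open with different spacing of methionine codons, which are in capitals (sequence read from the GRCm38 genome through Gencode M21, 5′ to 3′ on the coding strand). Rack1 (chr11:48800464-48801673, plus strand, 2 exons) had 3 methionine codons in this stretch and Pelo (chr13:115089800-115089919, minus strand, 1 exon) had 2. Zfp598 (chr17:24669758-24669877, plus strand, 1 exon), Ltn1 (chr16:87427715-87432467, minus strand, 2 exons) and Ascc3 (chr10:50604793-50607949, plus strand, 2 exons) had only the start codon there.
Rack1: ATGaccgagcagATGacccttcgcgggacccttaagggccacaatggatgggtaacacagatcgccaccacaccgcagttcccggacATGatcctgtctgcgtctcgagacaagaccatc
Zfp598: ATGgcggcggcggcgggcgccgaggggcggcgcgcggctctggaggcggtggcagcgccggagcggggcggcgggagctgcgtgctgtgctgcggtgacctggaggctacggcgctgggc
Pelo: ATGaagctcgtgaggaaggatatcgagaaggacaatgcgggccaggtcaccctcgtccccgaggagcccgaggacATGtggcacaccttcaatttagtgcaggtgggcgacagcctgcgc
Ltn1: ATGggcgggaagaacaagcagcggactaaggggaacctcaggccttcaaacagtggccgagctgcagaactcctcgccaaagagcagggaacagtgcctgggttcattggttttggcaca
Ascc3: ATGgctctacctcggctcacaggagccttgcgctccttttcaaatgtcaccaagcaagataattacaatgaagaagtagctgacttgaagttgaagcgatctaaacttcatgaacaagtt

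Over whole coding sequences the members differed widely in the number of methionine codons. Rack1 had 5 in 317 codons, with the second at codon 5. Zfp598 had 6 in 905 codons, or 6.63 per 1000 codons. Its longest distance from a methionine codon to the next, or to the stop codon, was 503 codons. The density of Zfp598 was above the density of 2.33% of 12225 protein-coding genes, whose median was 21.3 per 1000 codons. Usp10 was also sparse, with 11 in 793 codons and the second only at codon 196. The longest proteins held the most, 37 in 1767 codons for Ltn1 and 52 in 2198 codons for Ascc3. Pelo had 7 in 385 codons, Etf1 9 in 437, Abce1 15 in 599, Hbs1l 16 in 679 and Nemf 25 in 1064. The start methionine is commonly cleaved from proteins whose second residue is small, and 8 of the 10 members had a small second residue. Pelo and Nemf, the other 2, had lysine there.

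Counts summed over all transcripts were 6403651 to 11150527 per library after removal of duplicates, with standard replicate 3 the shallowest. A read that fits several transcripts can enter such a sum repeatedly. A level of 3 counts, the lowest taken as measurable, was 0.262 to 0.476 CPM (read counts scaled to a common library size by TMM), and it covers counting error only. All 10 main transcripts passed the filter of 1 CPM in at least 1 library, and their counts ran from 80 for Pelo in standard replicate 3 to 3644 for Rack1 in standard replicate 2. The cells carried the markers of their label: 9 of 9 pluripotency genes, among them Pou5f1, Sox2 and Nanog, were at 1 CPM or more in every library. Their summed level was 1313 to 1411 CPM in standard and 1205 to 1311 CPM in AHARIBO libraries. The 2 mesoderm markers together stayed between 0.200 and 0.635 CPM, the 3 endoderm markers between 1.92 and 3.97 CPM and the 3 fibroblast markers between 0.875 and 2.02 CPM. The 4 neuronal markers summed to 38.7 to 43.0 CPM, of which Tubb3 made 31.7 to 36.8 CPM, and their part in the results below was not tested.

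AHARIBO and standard libraries were compared to ask whether capture through the nascent chain samples the same ribosomes as pelleting. Of the 10 members, 3 differed between the methods at an adjusted p under 0.05 (edgeR's quasi-likelihood test, Benjamini-Hochberg over 66972 transcripts), beside 5.12% of all 12379 genes tested in this way. Ltn1 and Ascc3 rose in AHARIBO, beside 2.59% of all genes, and Rack1 fell, beside 2.53%. The median log2 fold change of the members was 0.05, and that of all genes was -0.003 with a middle range of -0.16 to 0.16. The 2 methods did not overlap for 5 members, 4 higher and 1 lower in AHARIBO, while 34.3% of all genes did not overlap. With DESeq2 in place of edgeR, 0 of the 10 and 76 of all genes were called after adjustment, and 3 members, the same 3, had an unadjusted p under 0.05, as did 7.30% of all genes. The calls were also lost without standard replicate 1 (0 called in edgeR, 3 unadjusted beside 15.4% of all genes) and without AHARIBO replicate 1 (0 called, 2 unadjusted beside 10.6%), and p-values measure the spread between these libraries only.

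**Figure D1:**
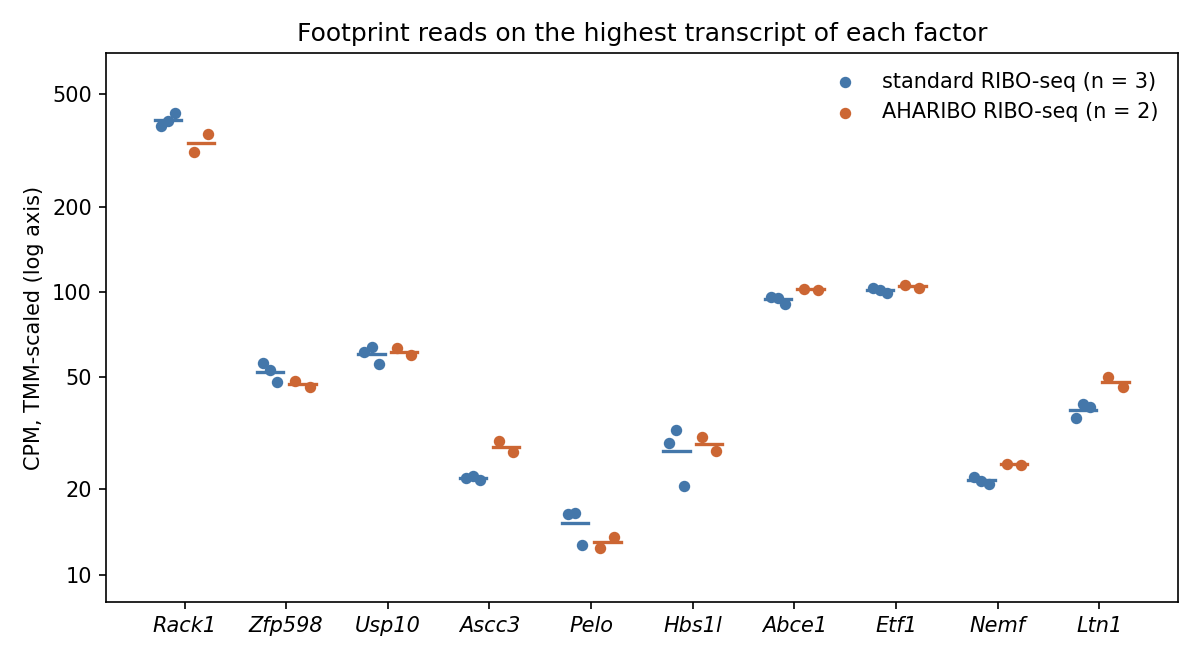
Level of the highest transcript of each member in CPM (TMM-scaled, log axis) in 3 standard (blue) and 2 AHARIBO (orange) libraries, with a point per library and a line at each mean. Rack1 lies far above the others, and the AHARIBO points lie outside the standard points for Rack1, Ascc3, Abce1, Nemf and Ltn1.

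Among the factors that sense and clear collided ribosomes, Rack1 fell, Ascc3 rose, and Zfp598 and Usp10 did not pass the test. Rack1, a protein of the small subunit that sits near the mRNA exit, had 387, 402 and 431 CPM in standard replicates 1 to 3 and 312 and 362 CPM in AHARIBO replicates 1 and 2. Both AHARIBO libraries lay below all standard libraries. The log2 fold change was -0.27 ± 0.08 (SE; adjusted p = 0.0341, edgeR), a mean level of 337 ± 35.6 CPM (SD, n = 2) against 406 ± 22.3 CPM (SD, n = 3). With duplicate reads kept, the fold change of Rack1 shrank to -0.07 (adjusted p = 0.593, edgeR). It was -0.17 without AHARIBO replicate 1 (adjusted p = 0.527, edgeR) and -0.38 without AHARIBO replicate 2 (adjusted p = 0.00448, edgeR). Without standard replicate 1, 2 or 3 the fold change was -0.30, -0.28 and -0.23. The call was lost there as well (adjusted p = 0.113, 0.0634 and 0.150, edgeR).

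Zfp598 is the ubiquitin ligase that marks small-subunit proteins of collided ribosomes. It had 56.0, 52.8 and 47.9 CPM in standard and 48.4 and 46.0 CPM in AHARIBO libraries. The groups overlapped through standard replicate 3, and the log2 fold change of -0.15 ± 0.09 did not pass the test (adjusted p = 0.344, edgeR). Among the 530 genes of 600 to 1000 codons with at most 10 methionine codons, where Zfp598 falls, the median log2 fold change was 0.03 with a middle range of -0.14 to 0.22. Zfp598 lay just below that range.

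Usp10, a deubiquitylase that removes ubiquitin from small-subunit proteins, had 61.5, 64.0 and 55.4 CPM in standard and 63.1 and 59.8 CPM in AHARIBO libraries. These values interleaved, with a log2 fold change of 0.02 ± 0.08 (adjusted p = 0.927, edgeR).

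Ascc3, the helicase that pulls apart collided ribosomes, had 22.0, 22.3 and 21.6 CPM in standard and 29.6 and 27.1 CPM in AHARIBO libraries. The standard libraries lay close together, 21.9 ± 0.361 CPM (SD, n = 3), and both AHARIBO libraries lay above them. Its log2 fold change of 0.37 ± 0.10 was the largest of the 10 members (adjusted p = 0.0177, edgeR). The value was 0.30 without AHARIBO replicate 1 and was then no longer called (adjusted p = 0.352, edgeR).

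Neither of the factors that recognise a ribosome with an empty or truncated message passed the test. Pelo, which resembles the release factor but reads no stop codon, had the lowest read level of the members, 16.4, 16.4 and 12.7 CPM in standard and 12.4 and 13.6 CPM in AHARIBO libraries. Standard replicate 3 lay among the AHARIBO libraries, and the log2 fold change was -0.25 ± 0.12 (adjusted p = 0.272, edgeR). Of its windows of 30 nt, 43.5% also occur in transcripts of Gm49395, a gene annotated as protein-coding, so reads from these parts cannot be told apart. The highest Gm49395 transcript held 3.01 to 3.75 CPM in the 5 libraries, below Pelo in each.

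Hbs1l, the GTPase that delivers Pelo, had 29.1, 32.3 and 20.6 CPM in standard and 30.5 and 27.5 CPM in AHARIBO libraries. The spread of the standard libraries, 27.4 ± 6.05 CPM (SD, n = 3), took in both AHARIBO libraries. The log2 fold change was 0.06 ± 0.11 (adjusted p = 0.829, edgeR), and its sign turned without standard replicate 3, the lowest library, to -0.081. A pseudogene, Gm9923, shares 14.1% of its windows.

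The termination factors did not pass the test either. Etf1, the release factor that reads all stop codons, had 103, 102 and 99.0 CPM in standard and 106 and 103 CPM in AHARIBO libraries. AHARIBO replicate 2 lay just under standard replicate 1, with a log2 fold change of 0.04 ± 0.08 (adjusted p = 0.822, edgeR). Abce1, the iron-sulfur ATPase that splits subunits after termination and after rescue, had 96.2, 94.8 and 90.9 CPM in standard and 103 and 102 CPM in AHARIBO libraries. Both AHARIBO libraries were above all standard ones, but the log2 fold change of 0.12 ± 0.08 did not pass the test (adjusted p = 0.434, edgeR). A pseudogene, Gm6640, shares 6.54% of the windows of Abce1 and held 14.9 to 16.7 CPM in the libraries.

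Of the factors that work on the split large subunit, Ltn1 rose in AHARIBO and Nemf did not pass the test. Nemf binds the large subunit that still carries a chain, adds a tail to that chain and recruits the ligase. It had 22.2, 21.4 and 20.9 CPM in standard and 24.7 and 24.5 CPM in AHARIBO libraries. The groups did not overlap, and the log2 fold change was 0.19 ± 0.10 (adjusted p = 0.301, edgeR). Ltn1, the ligase that ubiquitylates the stalled chain, had 35.7, 40.2 and 39.0 CPM in standard and 50.0 and 46.0 CPM in AHARIBO libraries. All AHARIBO values exceeded all standard values, 48.0 ± 2.77 CPM (SD, n = 2) against 38.3 ± 2.30 CPM (SD, n = 3). The log2 fold change was 0.33 ± 0.09 (adjusted p = 0.0174, edgeR), and it was 0.27 without AHARIBO replicate 1 (adjusted p = 0.319, edgeR).

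**Figure D2:**
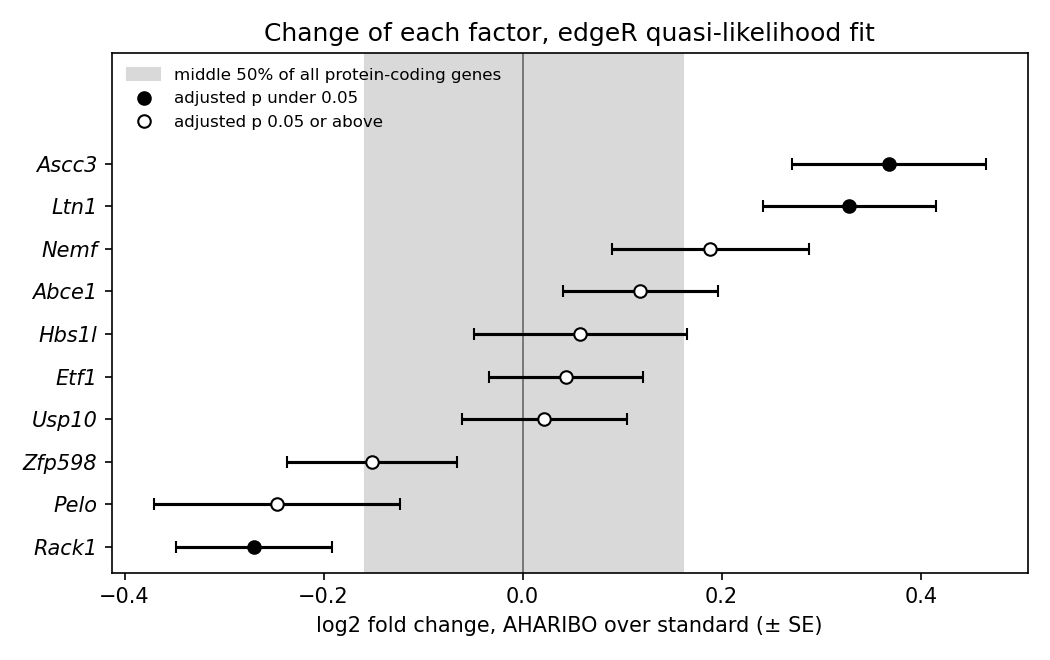
Log2 fold change of each member, AHARIBO over standard, with its SE from edgeR's quasi-likelihood fit; filled points have an adjusted p under 0.05 and the grey band is the middle range of all 12379 genes, -0.16 to 0.16. Ascc3, Ltn1 and Nemf lie above the band and Pelo and Rack1 below it, while Zfp598, Usp10, Etf1, Hbs1l and Abce1 lie inside it.

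The shortest and longest members stood at the ends of the range of fold changes. Rack1 and Pelo, the shortest, had the lowest values, and Ltn1 and Ascc3, the longest, had the highest. Between them the order was broken: the values fell from Abce1 (599 codons, 0.12) through Hbs1l (679 codons, 0.06) and Usp10 (793 codons, 0.02) to Zfp598 (905 codons, -0.15). Across the 10 members Spearman's rho was 0.79 with the number of codons and 0.96 with the number of methionine codons. These are descriptions over genes that share the same 5 libraries and are not independent. The same lean was present across all genes, more weakly, with rho of 0.28 for codons, 0.26 for methionine codons and 0.00013 for methionine codons per 1000 codons (n = 12225 genes). In the 1720 genes of at most 200 codons the median log2 fold change was -0.10. It was -0.05 in the class up to 400 codons, -0.01 up to 600, 0.05 up to 1000, 0.09 up to 1500 and 0.16 in the 681 longer genes. Ltn1 and Ascc3 lay above the upper quartile of the longest class, 0.30, and Rack1 and Pelo below the lower quartile of theirs, -0.20. Zfp598 also lay below the lower quartile of its class, -0.084.

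Taken library by library, rho with codons was 0.31 for AHARIBO replicate 1 and 0.22 for replicate 2, each against the mean of the standard libraries. Each standard library against the mean of the other standard libraries gave -0.008, 0.12 and -0.10, so standard libraries also differed along this axis, by less. The part of coding length in the members' differences was not tested.

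**Figure D3:**
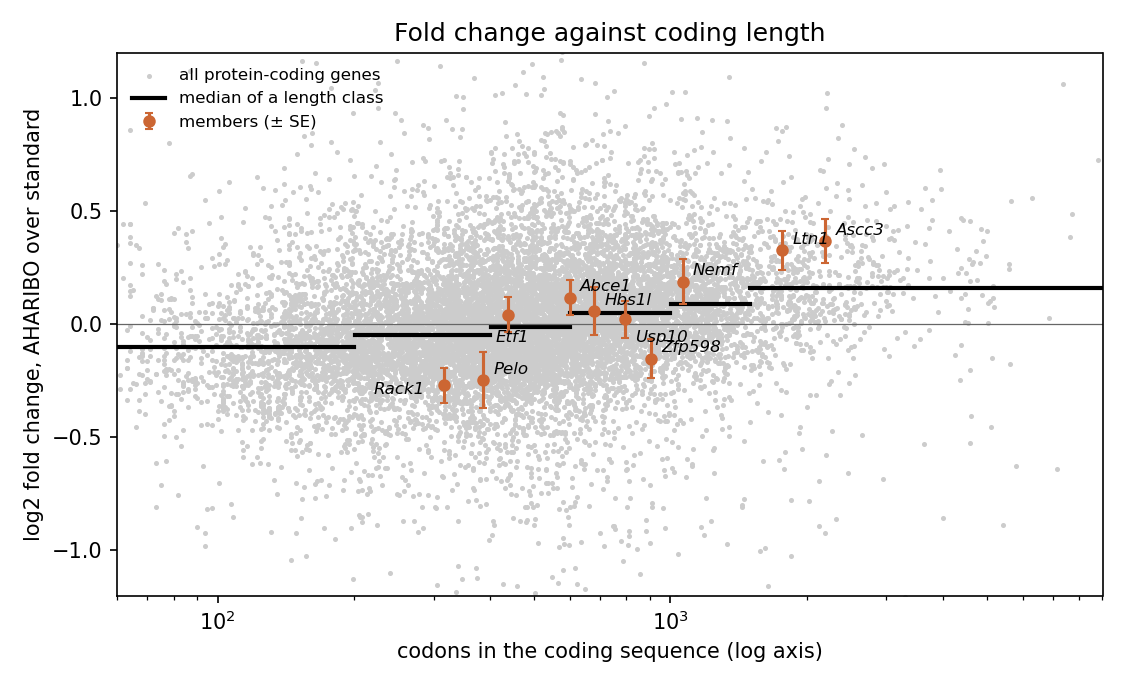
Log2 fold change, AHARIBO over standard, against the number of codons (log axis) for all protein-coding genes (grey), with the median of each of 6 length classes (black) and the 10 members (orange, ± SE). The medians step from -0.10 to 0.16 with length; the 2 shortest members lie lowest and the 2 longest highest, while the values from Abce1 to Zfp598 fall with length; 126 genes fall outside the axes.

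Levels between genes were compared per kb of transcript, over the 5 libraries. Rack1 had 262 ± 31.0 CPM per kb (SD, n = 5), rank 41 of 12379 genes on this scale. Etf1 followed with 27.7 ± 0.680 and Abce1 with 25.6 ± 1.29, whose ranges overlapped although Etf1 was higher in 5 of 5 libraries. Usp10 (16.3 ± 0.916) and Zfp598 (15.3 ± 1.24) overlapped, as did Hbs1l (10.0 ± 1.61) and Pelo (8.94 ± 1.23), and Ltn1 (5.45 ± 0.739) and Nemf (4.80 ± 0.366). Ascc3 was the lowest, 3.16 ± 0.465 CPM per kb, near the middle of all genes, at rank 6277. The ranges of the 5 steps between these tiers were separate.

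With the counts of all protein-coding transcripts of a gene summed, although they share reads, Usp10 (36.1) and Hbs1l (34.9 CPM per kb) stood above Etf1 and Abce1. With duplicate reads kept, Rack1 had 514 CPM per kb and Ltn1 3.32. On the main transcripts, 2 pairs that act together were neighbours. Within a library, the ratio of Pelo to Hbs1l, which form a complex, was 0.710 to 1.07, with a mean of 0.903. Nemf to Ltn1 was 0.807 to 1.01, with a mean of 0.888. Etf1 exceeded Pelo, the rescue counterpart, by 2.67 to 3.68 times. Not all related factors had similar levels: Zfp598 exceeded Ascc3 by 3.86 to 6.02 times and Abce1 exceeded Pelo by 2.43 to 3.48 times. The ratio of Usp10 to Zfp598 was 0.968 to 1.15. Per kb of coding sequence alone, which divides the same reads by the coding length alone, the order of the 10 genes was the same and Etf1 (78.3 ± 1.92) separated from Abce1 (54.1 ± 2.72 CPM per coding kb, SD, n = 5). On that scale Etf1 exceeded Pelo by 5.45 to 7.51 times.

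Duplicate reads were removed without molecular identifiers, and the share removed was largest on Rack1, followed by Etf1 and Abce1. On Rack1, 71.7%, 72.0% and 66.7% of reads were removed in standard and 76.9% and 71.7% in AHARIBO libraries. On Ascc3 only 6.67%, 2.88% and 8.11% were removed in standard and 8.65% and 6.23% in AHARIBO libraries. Over whole libraries the share was 43.3% to 43.8% in standard and 44.9% to 47.7% in AHARIBO. The shares of Abce1 were higher in AHARIBO (33.3% ± 4.42, SD, n = 2) than in standard libraries (25.7% ± 2.91, SD, n = 3), and those of Zfp598 were lower (15.4% ± 1.03 against 20.0% ± 1.42). The difference for Abce1, 7.61 percentage points, was 4.49 without AHARIBO replicate 1 and 10.7 without AHARIBO replicate 2. Both reached the smallest p that 10 splits allow, 0.1 in a two-sided exact permutation test, and 0.5 after Benjamini-Hochberg adjustment over the 10 members. The other 8 members had p of 0.4 or more in the same exact test.

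**Figure D4:**
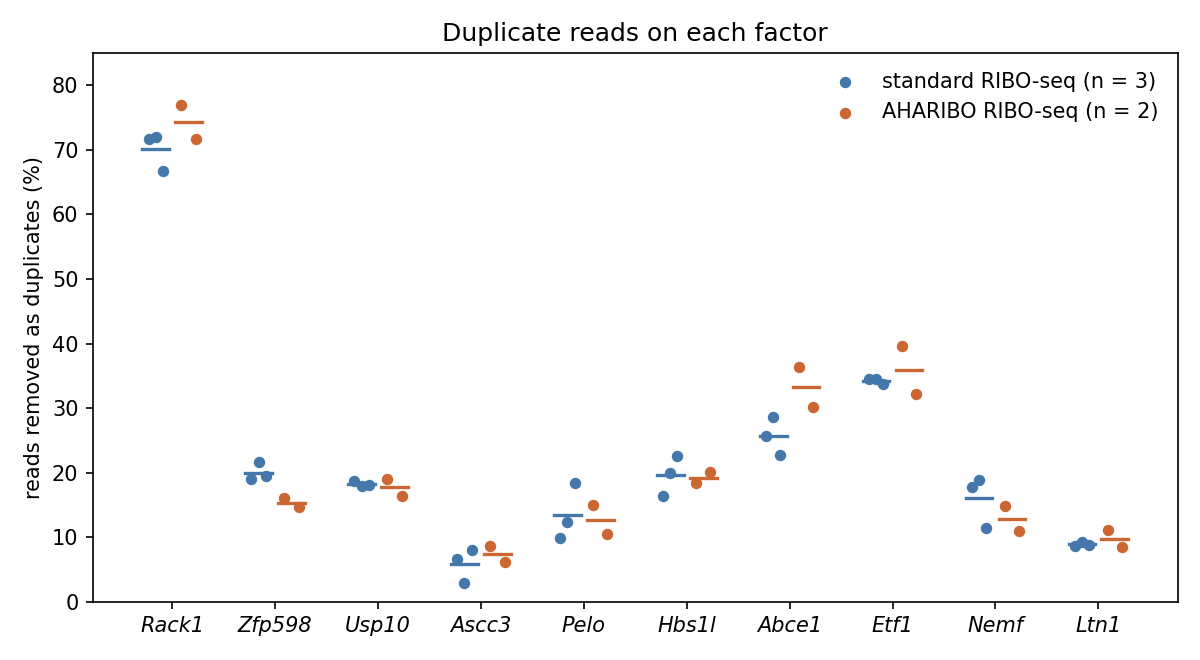
Percent of the reads on each member that were removed as duplicates, in 3 standard (blue) and 2 AHARIBO (orange) libraries, with a point per library and a line at each mean. Rack1 stands at 66.7% to 76.9%, while Ascc3 and Ltn1 stay under 12%.

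Together the 10 main transcripts took 0.0823%, 0.0844% and 0.0825% of all transcript counts in standard and 0.0799% and 0.0815% in AHARIBO libraries. A read that fits several transcripts can enter this denominator repeatedly. Both AHARIBO values were below all standard values, a mean difference of -0.00239 percentage points, and p was 0.1, the smallest that the two-sided exact permutation test allows here. The groups overlapped with all protein-coding transcripts of the members (-0.00106, p = 0.7), with duplicates kept (-0.0029, p = 0.7) and against reads on the highest transcript of every gene (-0.00417, p = 0.3, exact permutation tests). They stayed separate against reads on protein-coding transcripts alone (-0.0050, p = 0.1, exact permutation test). Rack1 alone made 46.6% to 51.3% of the members' reads in standard and 40.0% to 44.6% in AHARIBO libraries. Without Rack1 the direction turned, with a mean of 0.0465% in AHARIBO against 0.0428% in standard libraries (p = 0.2, exact permutation test). Both AHARIBO values (0.0479% and 0.0451%) then lay above all standard values (0.0439%, 0.0444% and 0.0402%).

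Of the 21 protein-coding transcripts of the members, 21 were tested and 3 called, the main transcripts of Rack1, Ltn1 and Ascc3, beside 4.51% of all transcripts tested. Reads were evidently shared between transcripts of a gene, since 2 Usp10 transcripts whose coding sequences differ by 1 codon held 599 and 585 counts in AHARIBO replicate 2. Hbs1l is a gene of 2 products. A short form of the human gene, with the first exons and a last exon of its own, is known as the counterpart of yeast Ski7, the bridge between the Ski complex and the exosome. In these data a transcript of 612 codons with 4 methionine codons (ENSMUST00000092674) shared 18.7% of its windows with the full-length transcript and 74.0% with another short transcript (ENSMUST00000061324), whose counts were nearly the same. A transcript of the first exons (ENSMUST00000218032), with 85.05% of its windows in the 612-codon transcript and 91.7% in the full-length one, held 43 to 110 counts per library, where the 612-codon transcript held 58 to 156. How many of the latter came from the full-length mRNA therefore cannot be told apart. The 612-codon transcript held 12.2, 14.5 and 9.20 CPM in standard and 13.6 and 13.4 CPM in AHARIBO libraries. Standard replicate 2 was the highest, and the log2 fold change of 0.14 ± 0.13 did not pass the test (adjusted p = 0.606, edgeR).

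The other 33 genes of the rescue pathway, a list of partners, sensors and mRNA decay factors, had 3 calls, 1 higher and 2 lower in AHARIBO, beside 5.12% of all genes, and a median log2 fold change of 0.01. The methods did not overlap for 14 of the 33, beside 34.3% of all genes. None of the 9 direct partners other than Edf1 was called. Gspt1, the GTPase that works with Etf1, had a log2 fold change of -0.01 ± 0.08, and Vcp, the ATPase that extracts ubiquitylated chains, 0.002 ± 0.08. Ankzf1, which frees the chain from its tRNA, had 0.10 ± 0.13, and Tcf25, a subunit of the complex around Ltn1, -0.04 ± 0.08. Ascc2 and Trip4, partners of Ascc3, had 0.01 ± 0.13 and 0.15 ± 0.14, below the value of Ascc3 itself. Gigyf2 and Eif4e2, which block initiation on messages with collided ribosomes, had 0.17 ± 0.09 and 0.01 ± 0.08, and Gspt2, a second form of Gspt1, had 0.13 ± 0.19.

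Edf1, a small protein that binds collided ribosomes, had 32.5, 31.9 and 34.9 CPM in standard and 25.4 and 25.6 CPM in AHARIBO libraries, a log2 fold change of -0.37 ± 0.09 (adjusted p = 0.0117, edgeR). Ttc37, the scaffold of the Ski complex, had 16.0, 18.3 and 16.2 CPM in standard and 22.7 and 22.1 CPM in AHARIBO libraries, 0.41 ± 0.11 (adjusted p = 0.0165, edgeR). The groups did not overlap for either gene. The shorter of them, Edf1, has 148 codons, and Ttc37 has 1563. None of the 33 genes was called with DESeq2, with duplicate reads kept or with gene sums, where 76, 358 and 29 of all genes were. Without standard replicate 1 or without AHARIBO replicate 1, 1 of the 33 was called, and without AHARIBO replicate 2, 5 were.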

How the data were processed

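Ribosome footprints of mESCs were analysed in 3 standard and 2 AHARIBO libraries, grouped by the labels. The authors deposited raw counts of reads per transcript, with and without duplicate reads, and transcript lengths. Per the labels and methods, reads were trimmed (Trimmomatic 0.36 in the submitters' processing notes), rRNA and tRNA reads were discarded, the rest were aligned with STAR to Gencode M17 transcripts, and antisense and duplicate reads were dropped. How reads that fit several transcripts were counted is not given in the sources used here. There are no molecular identifiers, so independent fragments that happen to start and end alike are lost with true duplicates.

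Counts without duplicates were scaled by TMM over all transcripts, and transcripts with 1 CPM in at least 1 library were kept. They were tested with edgeR 4.0.16 (quasi-likelihood, R 4.3.3), with Benjamini-Hochberg adjustment over all of them and a threshold of 0.05. SEs were derived from the fold change and F statistic and are approximate. DESeq2 1.42.0, other normalizations and filters, duplicates kept, gene sums, a replicate block and leaving out each library were alternatives; for levels and read shares, coding length, all transcripts of a gene and other denominators were also tried. Names and coding sequences came from Gencode M21 by unversioned ID, which matched 99.8% of the transcripts; Ltn1 and Zfp598 differ in length by a few bases between the releases. On simulated counts for this comparison (66843 transcripts that passed the filter), 62 of 100 transcripts changed 1.3-fold and 100 of 100 changed 2-fold were called, with 13 false calls. The changed transcripts were drawn from those at higher levels, above the level of Pelo. Every transcript had the same spread beyond counting error (dispersion 0.0027) and independent counts, so these rates need not hold for the members. The members and lists were chosen with earlier results of these data known. All 10 members and the direct partners were named, and other pathway genes only where called; 1 of these is not reported here. The number of per-sample columns not used was 0. Protein sequences and footprint positions were not analysed here.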

Additional observations from a re-analysis of the deposited data

How the results depend on the processing

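Of the 3 members called, Ltn1 stayed called under 9 of 14 alternatives, Ascc3 under 8 and Rack1 under 4, and each kept its direction under all 14. No member was called with DESeq2 (76 of all genes, with no adjusted p for 7156 of 12379, where edgeR called 634), with duplicate reads kept or with gene sums (0 each; at an unadjusted p under 0.05 there were 3, 4 and 3, beside 7.30%, 19.8% and 16.1% of all genes). No pathway gene was called under these either (0 each; 5, 7 and 8 of 33 unadjusted, beside the same shares, and DESeq2 gave 9 of the 33 no adjusted p), nor any member transcript under the first 2 (0; 3 and 4 unadjusted). Leaving out 1 library gave 0 to 3 members, 0 to 3 of their transcripts and 1 to 5 pathway genes. Deviations of same-numbered libraries correlated at 0.035 and -0.094. These values cannot tell whether the replicate numbers pair the libraries, since the deviations of 2 AHARIBO libraries mirror each other and hold counting error. With a replicate block, 1 member and 1 transcript (Ltn1) and 2 pathway genes were called, and Hbs1l turned to -0.081 and Usp10 to -0.030. With 1 library left out, Hbs1l ran from -0.081 to 0.19 and Usp10 from -0.029 to 0.067, both turning without standard replicate 3 or AHARIBO replicate 1. Usp10 was -0.0024 with duplicates kept. The members' read share difference turned from -0.00239 to 0.00369 percentage points without Rack1, and was -0.00321 to -0.00158 with 1 library left out. With 1 library left out, differences in duplicate share changed sign within -0.372 to 2.16 percentage points (Ltn1), -3.01 to 1.63 (Pelo), -2.02 to 1.09 (Hbs1l), -1.78 to 0.754 (Usp10) and -2.10 to 5.40 (Etf1). Levels per kb moved beyond the SD over libraries in 24 of 80 cases. The cause was not tested. The gap in median log2 fold change between the longest and shortest coding sequences, 0.26, was 0.18 to 0.32 under the 14 alternatives, chosen after seeing the data. In the simulated counts, which gave every transcript the same dispersion and drew changes from higher-level transcripts, 62 of 100 changes of 1.3-fold were called.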
